A study of Mus musculus with 12 samples.

Results

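Phase I and phase II detoxification enzymes were followed in mouse tongue epithelium: the cytochrome P450 families Cyp2, Cyp3 and Cyp4, flavin monooxygenases (Fmo), carboxylesterases (Ces), epoxide hydrolases (Ephx), carbonyl reductases (Cbr), aldo-keto reductases (Akr1), cytosolic and microsomal glutathione transferases (Gst and Mgst), glucuronosyltransferases (Ugt) and sulfotransferases (Sult). They were chosen by gene symbol, with earlier results of these data known, and 238 of the 49164 genes with counts matched. The tissue came from Langerin-DTR mice, in which cells that make langerin, in this epithelium the Langerhans cells, carry a receptor that makes them sensitive to diphtheria toxin (DT). Starting at an age of 2 weeks and lasting into adulthood, 2 injections per week of DT (6 samples) or of phosphate-buffered saline (PBS, 6 samples) were made. All 12 samples carried the transgene, and none came from mice that lacked it and received DT, so an effect of the toxin itself and an effect of losing the cells cannot be told apart. The labels give neither the sex nor the final age of the mice, nor whether each sample is 1 mouse, so p-values measure the spread between these samples, which may in part be technical.

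Phase I enzymes add or uncover a reactive group on a foreign or endogenous small molecule by oxidation, reduction or hydrolysis. Phase II enzymes then couple glutathione, glucuronic acid or sulfate to it, which makes it more soluble and easier to export. The liver holds most of this capacity, but airway, skin and oral epithelia carry sets of their own, and several of these enzymes also process lipids of the epithelial barrier.

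Total counts per sample were 21226436 to 34333949, and 3 counts in a sample, taken as the limit of detection, corresponded to 0.0813 to 0.143 CPM (counts scaled to the size of the library). Cd207, the langerin gene, had 53 to 92 counts in each PBS sample and 0 to 2 in each DT sample (log2 fold change -6.78, edgeR adjusted p = 6.71e-09), as the labels say. Of the 8 genes on the Langerhans cell list Cd207 and Mfge8 were called lower (Mfge8 log2 fold change -0.41, edgeR adjusted p = 0.0291). Cd24a (log2 fold change -0.22, edgeR adjusted p = 0.0511) was not. Nor were 5 genes that other epithelial or antigen-presenting cells also express (Epcam, Cd74, H2-Ab1, H2-Aa and H2-Eb1, log2 fold changes -0.13 to 0.03). Mean Cd207 went from 2.80 to 0.0189 CPM, whereas most of the Mfge8 level (72.8 to 55.0 CPM) and of the Cd24a level (787 to 677 CPM) remained in DT. Summed markers of differentiated tongue keratinocytes stood at 159790 to 197297 CPM in PBS and 130861 to 167412 CPM in DT, and 3 of the 10 (Krt78, Rptn and Sprr1b) were called lower in DT. The 6 hepatocyte markers, 3 of which had 0 counts throughout, summed to at most 0.351 CPM in any sample. The 10 markers of minor salivary glands, 2 of them at 0, summed to 0.535 to 3.40 CPM.

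The DT samples stood apart in 2 sets over all genes. On the first principal component DT 1, DT 2 and DT 3 lay at 14.1 to 20.7, on the side of PBS 5 and PBS 6, and DT 4, DT 5 and DT 6 at -17.4 to -11.7, on the side of the other PBS samples. The chi-square per degree of freedom between samples was 7.82 to 9.22 within the first set, 7.69 to 14.7 within the second and 21.9 to 47.6 between them. PBS samples were uneven as well. The same value was 6.25 to 12.5 among PBS 1, PBS 2, PBS 3 and PBS 4. From these, PBS 5 stood at 47.8 to 55.6 and PBS 6 at 16.5 to 25.5, with 20.8 between PBS 5 and PBS 6. The labels name no batch that matches the 2 sets of DT samples. With the side of this component, which was taken from these same data, as a term in the fit, 7.15% of all tested genes were called (1.3% without it). The 15 members called with this term held all 8 members called below.

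A total of 81 of the 238 members were abundant enough to be tested. Of the 157 others, 88 had 0 counts in all 12 samples, 44 had 1 to 10 counts in all and 25 had more. A gene could pass this filter through its level in 1 group, so counts over the tested members only describe them. All 3 Mgst, 4 Cbr and 4 Ephx genes and 18 of 24 Gst genes were tested, as were 12 of 20 Ces, 4 of 7 Fmo and 7 of 16 Akr1 genes. Fewer were tested of the large families, with 12 of 72 Cyp2, 1 of 11 Cyp3, 7 of 28 Cyp4, 5 of 22 Ugt and 4 of 27 Sult genes tested. The untested members with the most counts were Cyp2t4 (24 counts over the PBS samples and 103 over the DT samples), Gstm7 (50 and 74) and Cyp4f37 (52 and 47). These are raw counts, not scaled to library size. Cyp2t4 had 0 to 14 counts per PBS sample and 1 to 40 per DT sample, most of the latter in DT 2 (28) and DT 4 (40).

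Levels of different genes were compared as mean CPM per kilobase of exon, with lengths from GENCODE M21 gene models. Gsto1, an omega-class glutathione transferase, stood first of the 81 at 451 in PBS and 509 in DT. Gsta4, which conjugates the lipid peroxidation product 4-hydroxynonenal, followed with 330.0 in PBS and 335 in DT, and Fmo2, the main flavin monooxygenase of the lung, with 251 in PBS and 179 in DT. Cyp2f2, a P450 known from club cells of the mouse airway, stood at 120.3 in PBS and 196 in DT, and Gstm1, a mu-class glutathione transferase, at 119 in PBS and 152 in DT. The same level was 113 in PBS and 108 in DT for Ces2g, 92.5 in PBS and 87.6 in DT for Cyp4f39, 79.2 in PBS and 75.5 in DT for Cbr3, 65.1 in PBS and 67.5 in DT for Akr1a1, 53.9 in PBS and 60.9 in DT for Mgst3 and 44.6 in PBS and 39.5 in DT for Ephx3, each the first of its family. Sult2b1 (25.6 in PBS and 25.0 in DT), Cyp3a13 (13.2 in PBS and 12.8 in DT) and Ugt1a7c (6.40 in PBS and 5.59 in DT) led theirs at lower levels. Single genes made up most of some families: Fmo2 was 95.5% of the summed CPM of the tested Fmo genes in PBS, Sult2b1 97.9% of Sult and Cyp4f39 89.2% of Cyp4. The coefficient of variation between PBS samples had a median of 12.5% over the tested members and ran from 4.15% for Gstm4 to 63.2% for Sult5a1.

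**Figure D1:**
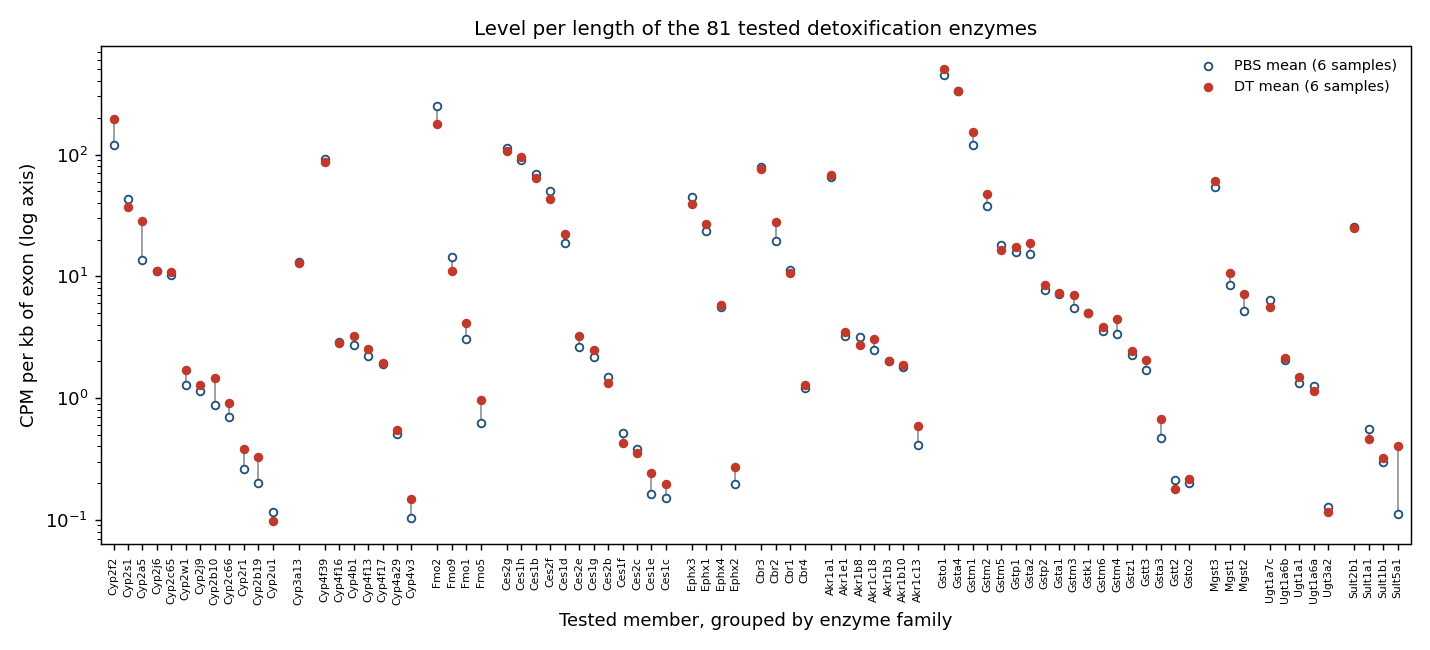
Mean CPM per kilobase of exon (log axis) of each tested member, grouped by family, in PBS (open points) and DT (filled points), 6 samples each. Gsto1, Gsta4 and Fmo2 stood highest in PBS, at 451, 330.0 and 251, and levels within a family spread widely.

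DT and PBS samples were compared to see which detoxification genes of the epithelium differ after Langerhans cells are depleted from early life on. Cyp2f2, Fmo5, Cbr2, Gstm1, Gstm4, Mgst1 and Sult5a1 rose, and Fmo2 fell. These 8 of 81 tested members (9.88%) passed the threshold of an edgeR adjusted p under 0.05 over all 14231 tested genes, of which 1.3% passed. The 7 that rose stand beside 0.443% of all genes called higher, and the 1 that fell beside 0.857% called lower. Of all calls 34.1% were higher, a share of 47.9% when scaled by the upper quartile and of 87.5% when scaled by library size only, a setting that shifted the median of all genes to 0.11 on the log2 scale; the 8 members were called with both. Over the tested members the median log2 fold change was 0.10, with 56 positive and 25 negative values, against a median of 0.01 over all tested genes. Positive values made up 69.1% of the tested members and 51.6% of all tested genes. The members' split was 54 and 27 with RLE scaling and 66 and 15 with library size alone. At an unadjusted edgeR p under 0.05 were 27 members, 24 positive and 3 negative, beside 15.4% of all genes (7.43% higher and 7.94% lower), and the groups did not overlap for 8, with DT above in 7 (0.836% of all genes) and below in 1. The summed CPM of the tested members was 5879 ± 307 in PBS and 5800.0 ± 489.9 in DT (mean ± SD, n = 6, as for all values of this form). Within it the Fmo sum went from 1477 ± 133 to 1072 ± 132 CPM and the Cyp2 sum from 555 ± 78.1 to 714 ± 98.8. The Gst sum went from 1699 ± 120 to 1899.8 ± 198 CPM. It was 1971, 1976 and 2209 CPM in DT 1, DT 2 and DT 3, against 1522 to 1839 in PBS. In DT 4, DT 5 and DT 6 it was 1654, 1851 and 1739 CPM. Single genes weighed on these sums: mean Cyp2f2 went from 244 to 397 CPM and Gsto1, which was not called, from 913 to 1029. The count of 8 depended on single samples: it was 3 without PBS 1, 3 without PBS 2, 2 without PBS 3, 4 without PBS 5, 2 without DT 2, 2 without DT 3, 4 without DT 4, 1 without DT 5 and 5 without DT 6. Cbr2 was called in all 12 fits that left out 1 sample and Fmo2 in 11, while the other 6 calls were lost in 5 to 11 of them.

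**Figure D2:**
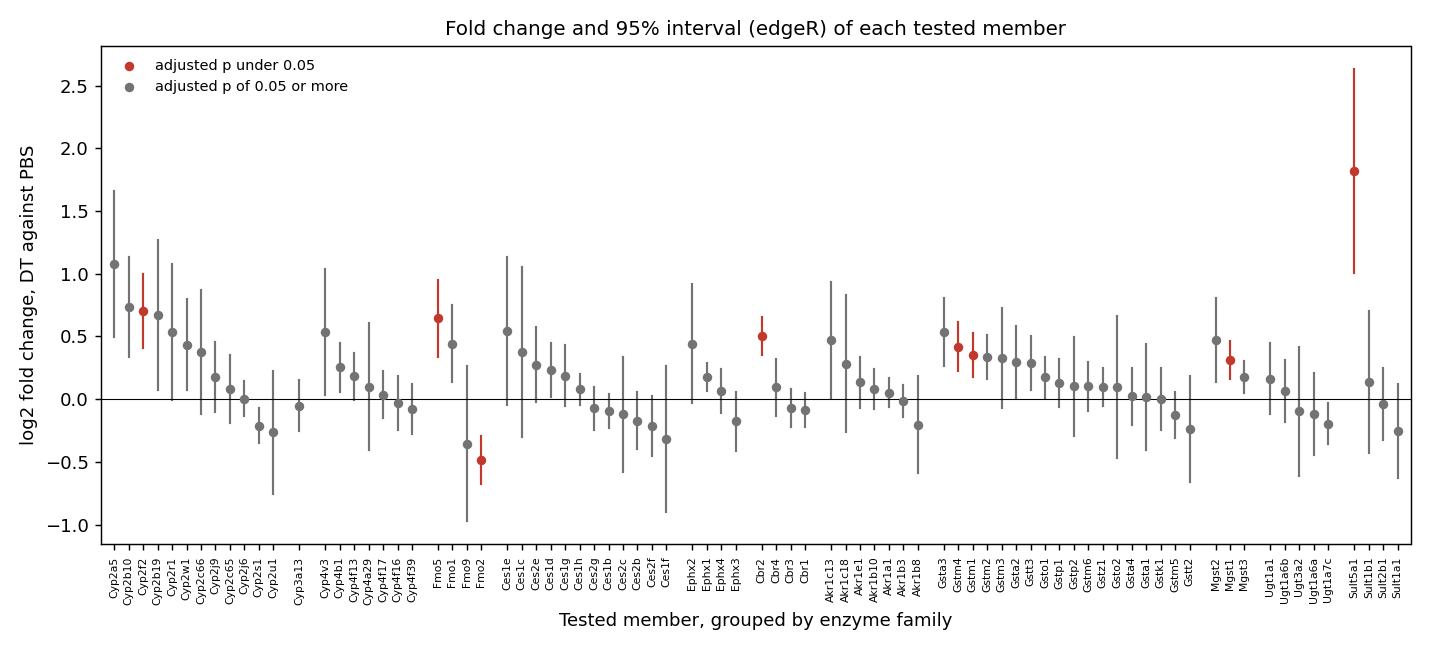
Log2 fold change of DT against PBS with its 95% interval for each of the 81 tested members, grouped by family, with members past the threshold in red. Sult5a1 (1.82) had the highest value and Fmo2 (-0.49) the lowest.

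Promoters were read for 2 motifs through which some genes of this kind are induced. The antioxidant response element core, bound by Nrf2, was searched as TGACNNNGC and the xenobiotic response element core, bound by the aryl hydrocarbon receptor, as GCGTG, each on both strands from 250 bases before to 50 bases after the gene start (RefSeq, GRCm38.p6). Of 69 tested members in that table, 7 held the first (10.1%, against 16.8% of all tested genes in it) and 18 the second (26.1%, against 55.0%). Over all genes in it, tested or not, the shares were 14.0% and 35.2%. Each occurred in 1 of the 8 called members, Mgst1 and Gstm1. A gene with several starts counted as holding a motif if any of its windows did, and that window is printed. Mgst1 (chr6:138140277-138140576, plus strand) holds the antioxidant core on the opposite strand and Gstm1 (chr3:108017769-108018068, minus strand) the xenobiotic core, both in capitals. Gstm4 (chr3:108044807-108045106, minus strand), a neighbour of Gstm1, and Cyp2f2 (chr7:27119705-27120004, plus strand), the called member with the largest rise in CPM, are shown beside them and hold neither in this window.
Mgst1: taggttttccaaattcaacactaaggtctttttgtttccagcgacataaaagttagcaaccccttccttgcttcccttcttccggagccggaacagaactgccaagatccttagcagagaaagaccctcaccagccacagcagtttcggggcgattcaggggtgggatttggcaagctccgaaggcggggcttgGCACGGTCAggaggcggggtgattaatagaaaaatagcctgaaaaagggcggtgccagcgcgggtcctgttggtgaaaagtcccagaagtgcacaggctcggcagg
Gstm1: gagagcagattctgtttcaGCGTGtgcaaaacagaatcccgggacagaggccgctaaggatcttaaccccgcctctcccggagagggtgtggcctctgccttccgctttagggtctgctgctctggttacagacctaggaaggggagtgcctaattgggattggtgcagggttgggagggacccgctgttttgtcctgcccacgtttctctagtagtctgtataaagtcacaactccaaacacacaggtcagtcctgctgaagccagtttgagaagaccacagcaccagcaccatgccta
Gstm4: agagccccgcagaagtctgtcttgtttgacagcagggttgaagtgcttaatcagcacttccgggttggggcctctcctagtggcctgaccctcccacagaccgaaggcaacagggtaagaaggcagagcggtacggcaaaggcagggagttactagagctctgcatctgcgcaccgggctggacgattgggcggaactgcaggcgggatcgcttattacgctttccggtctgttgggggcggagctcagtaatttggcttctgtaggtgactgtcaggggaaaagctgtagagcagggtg
Cyp2f2: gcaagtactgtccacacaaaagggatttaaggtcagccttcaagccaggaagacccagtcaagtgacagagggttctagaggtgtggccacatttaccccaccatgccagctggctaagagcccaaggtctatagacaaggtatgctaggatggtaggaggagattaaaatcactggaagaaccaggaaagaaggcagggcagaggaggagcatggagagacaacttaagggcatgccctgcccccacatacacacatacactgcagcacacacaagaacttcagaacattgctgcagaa

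Among the P450 enzymes Cyp2f2, which oxidizes naphthalene in the mouse lung, rose. Its levels were 179, 263 and 291 CPM in PBS (lowest, median and highest sample) and 313, 384 and 517 CPM in DT. The groups did not overlap, which held for 2.21% of all tested genes, and PBS 5 and PBS 2 were the low PBS samples while DT 5 was highest. The difference was 0.70 on the log2 scale (95% interval 0.41 to 1.00, edgeR adjusted p = 0.0251). The call was lost without PBS 2, PBS 3, DT 2, DT 3 or DT 5, with an edgeR adjusted p of up to 0.0674.

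In the RefSeq gene order Cyp2f2 lies on chromosome 7 in a run of 13 Cyp2 genes, 5 of them tested. Cyp2a5, a coumarin hydroxylase of mice, had 11.4, 29.4 and 46.6 CPM in PBS (lowest, median and highest sample) and 45.3, 52.6 and 101 CPM in DT. PBS 5 and PBS 2 were again lowest and DT 5 highest, and the groups overlapped only through PBS 4 (46.6 CPM) and DT 1 (45.3 CPM). It did not pass in the main comparison (log2 fold change 1.08, 95% interval 0.50 to 1.66, edgeR adjusted p = 0.0651). It passed without PBS 4 (0.0428), by DESeq2 (0.0411), without the filter on low counts (0.00375), with library size alone (0.0349) and with the principal component term (0.00884). Of all genes, DESeq2 called 3.8%, library size alone 3.89%, the component term 7.15% and no filter 0.744%, beside 1.3% in the main comparison. Cyp2a5 did not pass with RLE scaling (0.0650), upper quartile scaling (0.0643), limma voom (0.0512) or a replicate block (0.228), nor in 11 of 12 fits that left out 1 sample. Of its 50-base stretches 37.0% occur in another gene, mostly Cyp2a4, which had 0 counts over the PBS samples and 3 over the DT samples. Reads from shared stretches may still be missing from the count of Cyp2a5. Cyp2b10, which phenobarbital induces in liver, was at 1.86 ± 0.402 CPM with PBS and 3.10 ± 0.815 with DT (log2 fold change 0.73, edgeR adjusted p = 0.0664), and was called by DESeq2, without the filter, with library size alone, with the component term, and without DT 1 or DT 6. Cyp2b19, an arachidonic acid epoxygenase of mouse keratinocytes, was at 0.841 ± 0.299 CPM with PBS and 1.37 ± 0.559 with DT (log2 fold change 0.67, edgeR adjusted p = 0.259). Cyp2s1, a P450 of epithelia outside the liver, had the one negative value of the run, at 213 ± 18.9 CPM with PBS and 184 ± 11.9 with DT (log2 fold change -0.21, 95% interval -0.35 to -0.07, edgeR adjusted p = 0.123; 0.0375 by DESeq2). In all 5 of these genes PBS 2 and PBS 5 were the lowest PBS samples.

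Of the 12 tested Cyp2 genes 10 had positive values (9 with RLE scaling), between -0.27 and 1.08 with a median of 0.40, and 1 was called. In the Cyp4 family 0 of 7 were called by edgeR or by DESeq2, and 2 were at an unadjusted edgeR p under 0.05. Cyp4f39, whose human relative CYP4F22 hydroxylates fatty acids of barrier ceramides, was at 264 ± 33.1 CPM with PBS and 250.2 ± 31.8 with DT (log2 fold change -0.08, 95% interval -0.28 to 0.12, edgeR adjusted p = 0.747). Cyp4b1 had the smallest p of that family (log2 fold change 0.25, edgeR adjusted p = 0.197), and the log2 fold change was 0.18 for Cyp4f13 and -0.03 for Cyp4f16. Cyp3a13, the one tested Cyp3 gene, was at 39.0 ± 3.21 CPM with PBS and 37.7 ± 6.08 with DT (log2 fold change -0.05, 95% interval -0.25 to 0.15, edgeR adjusted p = 0.852), a value that was 0.05 with scaling by library size alone.

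Flavin monooxygenases, which oxygenate nitrogen and sulfur atoms, differed in both directions. Fmo2 fell, with 1236, 1403 and 1569 CPM in PBS (lowest, median and highest sample) and 865, 976 and 1217 CPM in DT. Each DT sample lay below each PBS sample, which held for 1.37% of all tested genes, and DT 4, DT 6 and DT 5 were lowest. The difference (log2 fold change -0.49, 95% interval -0.68 to -0.29, edgeR adjusted p = 0.0189) is a decrease by 28.6%, and without DT 5 the edgeR adjusted p was 0.0564. The summed markers of differentiated keratinocytes were lowest in the same DT samples, at 130861 CPM in DT 6, 131781 in DT 4 and 138191 in DT 5, and their part in the fall of Fmo2 was not tested. In bulk RNA, fewer cells of a type and less RNA per cell cannot be told apart.

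Fmo5, which inserts oxygen next to carbonyl groups, rose, with 3.17, 3.55 and 4.12 CPM in PBS (lowest, median and highest sample) and 3.66, 5.66 and 7.46 CPM in DT. DT 1 lay within the PBS range and the other DT samples above it (log2 fold change 0.64, 95% interval 0.33 to 0.95, edgeR adjusted p = 0.0435). The call held in 1 of the 12 fits that left out 1 sample, the one without DT 1, and the edgeR adjusted p reached 0.104 in the others; the adjusted p was 0.0593 with limma voom. Fmo1, which neighbours Fmo2 on chromosome 1, was at 19.2 ± 3.34 CPM with PBS and 26.2 ± 5.53 with DT (log2 fold change 0.44, edgeR adjusted p = 0.148; 0.0402 without DT 4, its lowest DT sample), and was also called with library size alone and with the component term. Fmo9 followed the 2 sets of DT samples, with 27.0, 18.1 and 14.8 CPM in DT 1, DT 2 and DT 3 and 48.3, 42.2 and 54.2 CPM in DT 4, DT 5 and DT 6 (log2 fold change -0.36, edgeR adjusted p = 0.611).

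**Figure D3:**
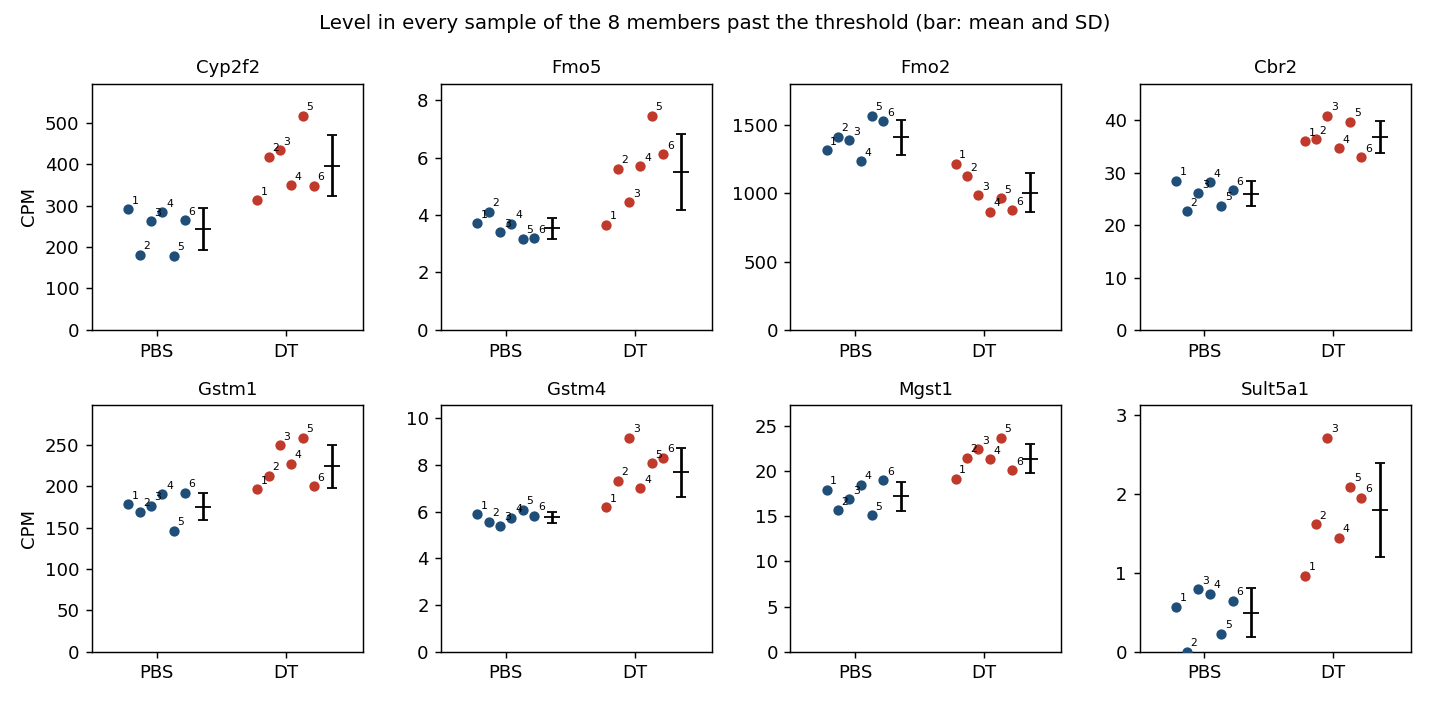
CPM in every sample of the 8 members past the threshold, numbered by replicate, with the mean and SD of each group as a bar. PBS 2 and PBS 5 were the lowest PBS samples for Cyp2f2, Cbr2, Gstm1, Mgst1 and Sult5a1, and DT 1 lay within the PBS range for Fmo5.

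Among the reductases Cbr2, the carbonyl reductase of the mouse lung, rose, with 22.7, 26.4 and 28.5 CPM in PBS (lowest, median and highest sample) and 33.0, 36.2 and 40.9 CPM in DT. The groups did not overlap, and PBS 2 and PBS 5 were the low PBS samples. The difference (log2 fold change 0.50, 95% interval 0.35 to 0.65, edgeR adjusted p = 0.00622) is an increase by 41.5%. Leaving out 1 sample gave log2 fold changes of 0.47 to 0.53 with edgeR adjusted p of 0.00398 to 0.0218. The carbonyl reductases Cbr1, at 28.9 ± 1.28 CPM with PBS and 27.2 ± 2.47 with DT (log2 fold change -0.09, 95% interval -0.22 to 0.04, edgeR adjusted p = 0.542), and Cbr3, at 99.4 ± 7.87 CPM with PBS and 94.6 ± 9.82 with DT (log2 fold change -0.07, 95% interval -0.23 to 0.08, edgeR adjusted p = 0.698), did not pass, and with scaling by library size alone their values were 0.01 and 0.03. Of the aldo-keto reductases 0 of 7 were called by edgeR or by DESeq2, and 1 was at an unadjusted edgeR p under 0.05. Akr1a1, aldehyde reductase, was at 179 ± 12.2 CPM with PBS and 186 ± 8.10 with DT (log2 fold change 0.05, 95% interval -0.07 to 0.17, edgeR adjusted p = 0.719). The log2 fold change was -0.02 for Akr1b3, aldose reductase, 0.13 for Akr1e1 and 0.47 for Akr1c13, which had the smallest p (edgeR adjusted p = 0.312).

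Carboxylesterases, which hydrolyse esters and amides, had 0 of 12 members called by edgeR or by DESeq2 and 1 at an unadjusted edgeR p under 0.05. Ces2g was at 405 ± 19.9 CPM with PBS and 385 ± 52.2 with DT (log2 fold change -0.07, 95% interval -0.24 to 0.10, edgeR adjusted p = 0.729) and Ces1h at 169.8 ± 12.2 CPM with PBS and 179 ± 9.85 with DT (log2 fold change 0.08, 95% interval -0.04 to 0.20, edgeR adjusted p = 0.559). Ces2f had 260.4, 278 and 207 CPM in DT 1, DT 2 and DT 3 and 173, 189 and 167 CPM in DT 4, DT 5 and DT 6, against 224 to 262 CPM in PBS (log2 fold change -0.22, edgeR adjusted p = 0.382), again by set. Ces1d, a triacylglycerol hydrolase, had the smallest p (log2 fold change 0.23, edgeR adjusted p = 0.278). The family held 6 positive and 6 negative values, and its median of 0.00 changed sign with RLE scaling. Of the epoxide hydrolases 0 of 4 were called by edgeR, with 1 at an unadjusted p under 0.05, and Ephx1 was called by DESeq2 (adjusted p = 0.0364). Ephx1, the microsomal enzyme that acts on epoxides made by P450 enzymes, was at 46.1 ± 2.38 CPM with PBS and 52.1 ± 2.55 with DT (log2 fold change 0.18, 95% interval 0.07 to 0.29, edgeR adjusted p = 0.108), and was also called with library size alone and with the component term. Ephx3, which acts on epoxides of skin lipids, was at 112 ± 13.8 CPM with PBS and 98.8 ± 17.5 with DT (log2 fold change -0.18, edgeR adjusted p = 0.469; 0.0172 with the component term), and Ephx4 had a log2 fold change of 0.06.

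Among phase II enzymes the cytosolic glutathione transferases had 2 of 18 tested genes called, Gstm1 and Gstm4, and 16 positive values (15 with RLE scaling) with a median of 0.11. Gstm1 rose, with 146, 178 and 192 CPM in PBS (lowest, median and highest sample) and 196, 219.9 and 259 CPM in DT. PBS 5 was lowest and DT 5 highest, and the groups did not overlap, though PBS 6 (192 CPM) and DT 1 (196 CPM) were close (log2 fold change 0.35, 95% interval 0.18 to 0.53, edgeR adjusted p = 0.0461). The call was kept without PBS 6, DT 1 or DT 6 and lost in the 9 other fits that left out 1 sample, with an edgeR adjusted p of up to 0.117. Other genes or pseudogenes hold 18.9% of its 50-base stretches, and 12.1% of those of Cbr2. Gstm4 rose at a lower level, with 5.41, 5.79 and 6.08 CPM in PBS (lowest, median and highest sample) and 6.19, 7.71 and 9.18 CPM in DT. These groups did not overlap either (log2 fold change 0.42, 95% interval 0.22 to 0.61, edgeR adjusted p = 0.0373), and the call was kept without PBS 5 or DT 1 and lost in 10 fits (up to 0.0984).

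The Gstm genes follow each other on chromosome 3 in a run of 7, of which 6 were tested and 5 had positive values. Gstm2 was at 63.4 ± 7.87 CPM with PBS and 80.1 ± 6.73 with DT (log2 fold change 0.34, edgeR adjusted p = 0.0533), and was called by DESeq2, without the filter, with library size alone, with the component term and without PBS 4. The log2 fold change was 0.33 for Gstm3 and 0.10 for Gstm6. Gstm5 was the exception (log2 fold change -0.13, edgeR adjusted p = 0.516): DT 1, DT 2 and DT 3 (18.2, 17.9 and 18.4 CPM) lay below each PBS sample and DT 4, DT 5 and DT 6 (23.8, 24.0 and 23.2 CPM) within the PBS range, as the 2 sets of all genes fall. Among the other transferases Gsta3 lay just outside the threshold, at 2.02 ± 0.302 CPM with PBS and 2.92 ± 0.371 with DT, with groups that did not overlap (log2 fold change 0.54, edgeR adjusted p = 0.0511). It was called by DESeq2, by limma voom, with upper quartile scaling, with library size alone, with the component term and without DT 1. Gsta4 was at 418 ± 44.2 CPM with PBS and 424 ± 74.5 with DT (log2 fold change 0.02, 95% interval -0.20 to 0.25, edgeR adjusted p = 0.956) and Gsto1 at 913 ± 71.0 CPM with PBS and 1029 ± 103 with DT (log2 fold change 0.17, 95% interval 0.01 to 0.33, edgeR adjusted p = 0.286). Cyp2b10, Cyp2b19, Gstm2, Gstm3, Gstm5, Gstm6 and Gsta3 were singled out after their values were seen.

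**Figure D4:**
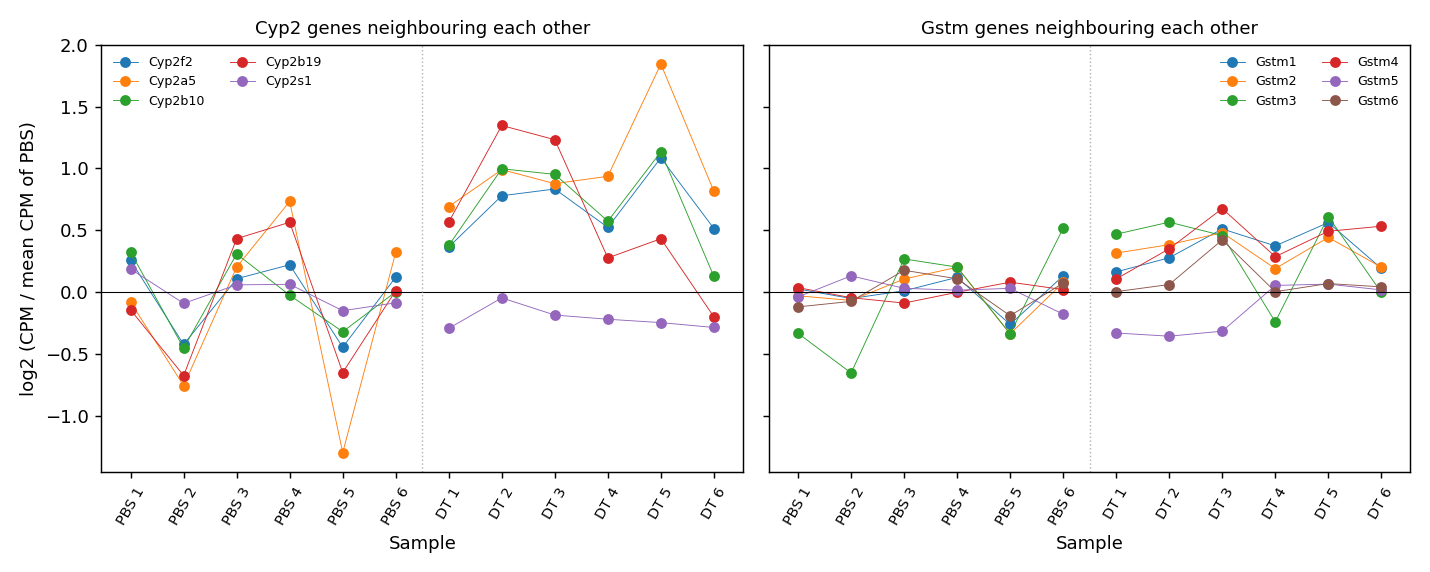
Log2 of the CPM in each sample over the PBS mean, for the tested genes of the Cyp2 run (left) and the Gstm run (right), with samples in label order, in which replicates have no order. Cyp2f2, Cyp2a5, Cyp2b10, Cyp2b19 and Cyp2s1 all had PBS 2 and PBS 5 as their lowest PBS samples, and Gstm5 had its lowest values in DT 1, DT 2 and DT 3.

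The microsomal glutathione transferases, membrane proteins of which Mgst1 also reduces lipid peroxides, had 3 positive values and 1 call. Mgst1 rose, with 15.1, 17.5 and 19.0 CPM in PBS (lowest, median and highest sample) and 19.2, 21.4 and 23.7 CPM in DT. The lowest DT sample (DT 1) lay just above the highest PBS sample (PBS 6), and DT 5 was highest (log2 fold change 0.31, 95% interval 0.16 to 0.46, edgeR adjusted p = 0.0441). The call was kept without PBS 6 or DT 1 and lost in 10 fits (edgeR adjusted p up to 0.116). Mgst3 was at 59.1 ± 4.49 CPM with PBS and 66.8 ± 3.53 with DT (log2 fold change 0.18, edgeR adjusted p = 0.155). Mgst2, which can make leukotriene C4, had 28.2, 32.2 and 34.8 CPM in DT 1, DT 2 and DT 3 and 20.5, 22.2 and 21.5 CPM in DT 4, DT 5 and DT 6, against up to 22.1 CPM in PBS (log2 fold change 0.47, edgeR adjusted p = 0.155), which follows the same sets.

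Sulfotransferases had 1 of 4 tested genes called. Sult5a1, whose substrate is unclear, rose at a very low level, with 0, 0.607 and 0.794 CPM in PBS (lowest, median and highest sample) and 0.960, 1.78 and 2.71 CPM in DT. PBS 2 had 0 counts and PBS 5 came next, and the groups did not overlap (log2 fold change 1.82, 95% interval 1.00 to 2.64, edgeR adjusted p = 0.0314). The call was kept without PBS 2, PBS 4, PBS 6 or DT 1 and lost in 8 fits (edgeR adjusted p up to 0.0838) and with limma voom (adjusted p = 0.0634). Sult2b1, the cholesterol sulfotransferase of keratinocytes, was at 101 ± 21.0 CPM with PBS and 98.9 ± 18.6 with DT (log2 fold change -0.04, 95% interval -0.32 to 0.25, edgeR adjusted p = 0.935), and Sult1b1 had a log2 fold change of 0.13. Of the glucuronosyltransferases 0 of 5 were called by edgeR or by DESeq2, and 1 was at an unadjusted edgeR p under 0.05. Ugt1a7c was at 27.0 ± 3.15 CPM with PBS and 23.6 ± 1.35 with DT (log2 fold change -0.20, 95% interval -0.36 to -0.03, edgeR adjusted p = 0.221), and the log2 fold change was -0.12 for Ugt1a6a and 0.06 for Ugt1a6b. The Ugt1a genes share their last exons, and 52.1% to 79.8% of the 50-base stretches of the 4 tested ones occur in another gene, so their separate levels are uncertain.

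PBS 2 and PBS 5 were the 2 lowest PBS samples for 18 of the 81 tested members (22.2%), and for 5 of the 8 called ones, against 6.70% of all tested genes. This pair was singled out after the values were seen. On the first principal component of all genes PBS 2 (-25.5) and PBS 5 (22.1) stood at the opposite ends of the PBS samples. Without both, Cbr2 was the 1 member called (log2 fold change 0.43, edgeR adjusted p = 0.0359), beside 16 of all genes (0.11%). Cyp2f2 then stood at 0.53, Fmo2 at -0.44 and Sult5a1 at 1.38 on the log2 scale.

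Other genes of the pathway were read from lists by function. Of 24 tested genes of the Nrf2 pathway and of glutathione and redox metabolism, 0 were called higher and 1 lower (median log2 fold change -0.06, beside 0.01 over all tested genes). Maff, a small Maf partner of Nrf2, fell from 57.6 ± 5.30 to 45.8 ± 4.66 CPM (log2 fold change -0.33, edgeR adjusted p = 0.0445). Of 10 tested xenobiotic receptors and partners 0 were called by edgeR (median -0.04), and Ppara, a fatty acid receptor, had the smallest p (log2 fold change 0.38, edgeR adjusted p = 0.129). Of 23 further phase I genes and partners 2 were called, both lower (median 0.03). These were the aryl hydrocarbon receptor targets Cyp1a1, at 2.00 ± 1.27 CPM with PBS and 0.515 ± 0.268 with DT (log2 fold change -1.96, edgeR adjusted p = 0.0255), and Cyp1b1, at 7.41 ± 2.74 CPM with PBS and 2.54 ± 1.34 with DT (log2 fold change -1.56, edgeR adjusted p = 0.0223). Of 15 further phase II and cosubstrate genes 0 were called by edgeR (median 0.02), and Gnmt, glycine N-methyltransferase, had the smallest p (log2 fold change 0.81, edgeR adjusted p = 0.108). Of 10 transporters 1 was called (median 0.07): Slco4a1, an organic anion transporter, rose from 5.84 ± 0.721 to 8.40 ± 1.21 CPM (log2 fold change 0.52, edgeR adjusted p = 0.0290). The DT and PBS groups overlapped for Cyp1a1, Cyp1b1 and Slco4a1 and did not for Maff. None of these genes was followed in the alternative fits, so how far their calls depend on single samples was not tested.

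Markers of other cell types moved with the groups in part. Erythrocyte markers, 3 of 5 tested genes of which were called lower, summed to 20.5 to 51.6 CPM in PBS and 15.9 to 25.6 CPM in DT. Fibroblast markers, with 0 of 5 called by edgeR and 5 negative, summed to 255 to 338 CPM in PBS and 264 to 332 CPM in DT. Dcn made up nearly all of this sum, with means of 295.3 CPM in PBS and 289.8 in DT (log2 fold change -0.03). At means of 0.354 to 1.44 CPM, the log2 fold change was -0.93 for Col1a1, -0.89 for Col3a1, -0.60 for Col1a2 and -0.19 for Pdgfra. Endothelial markers (0 of 2 called, 2 negative, median log2 fold change -0.87) summed to 4.27 to 10.9 CPM in PBS and 4.21 to 6.50 CPM in DT. Muscle markers (0 of 7 called, 7 negative, median -1.06) summed to 4.20 to 72.6 CPM in PBS and 5.51 to 33.4 CPM in DT. Basal keratinocyte markers (0 of 7 called, 3 positive and 4 negative) summed to 9824 to 11555 CPM in PBS and 9216 to 11206 CPM in DT. Macrophage markers (0 of 7 called, 2 positive and 5 negative) summed to 24.6 to 29.8 CPM in PBS and 17.6 to 26.5 CPM in DT. Of the secretory airway cell markers, a list added after the values of Cyp2f2 and Cbr2 were seen, Scgb1a1 was at 5.89 ± 0.749 CPM with PBS and 6.53 ± 1.74 with DT (log2 fold change 0.15, edgeR adjusted p = 0.691), Scgb3a2 had 43 counts over the PBS and 106 over the DT samples, Bpifa1 47 and 48, and Scgb3a1 had 0. The part of these cells in the differences described above was not tested.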

How the data were processed

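RNA of tongue epithelium was sequenced in 6 DT and 6 PBS samples. The authors deposited raw read counts per gene and counts divided by DESeq2 size factors (unit signal, per the file headers), and the latter served only to check the size factors. Per the submitters' processing notes, cutadapt 2.10, TopHat2 2.1.1, HTSeq 2.01, DESeq2 1.36.0 and the GRCm39 build were used. The annotation and strand setting are not given in the sources used here, so overlapping and antisense genes are uncertain.

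Blank entries removed 6250 of the 55414 listed genes. Counts were scaled by TMM, filtered with filterByExpr (minimum count 10) and compared by edgeR 4.0.16's quasi-likelihood test in R 4.3.3, with Benjamini-Hochberg adjustment over all tested genes and a threshold of 0.05. On simulated data the fit called 71.7% of 99 genes changed 1.5-fold and 89.9% of 99 genes changed 2-fold, in either direction. Of its calls there 5.88% were false. The simulated samples did not hold the 2 sets of DT samples, so these shares may not carry over to these data. CPM uses TMM-scaled library sizes. Intervals are 95% and floors cover counting error only. Alternatives were other scalings, no filter, DESeq2 1.42.0, limma voom 3.58.1, a replicate block, a principal component term and leaving out samples.

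Members were chosen by symbol, and the members and lists were chosen with earlier results of these data known. Named members are those called and, in each family, the member with the smallest p and the 3 with the highest mean CPM, plus the 3 untested members with the most counts; of the pathway lists, those called and the smallest p. Runs of neighbours allow a distance of up to 5 protein-coding genes. Shared 50-base stretches were counted between GENCODE M21 gene models. Protein sequences were not used here.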

Additional observations from a re-analysis of the deposited data

Results flagged for a closer look

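In 3 of 78 groups checked (39 members, each in 6 PBS and 6 DT samples) 1 sample lay far from the other 5; chance gives about 1 such group in 20. The gap to the nearest sample, as a share of the group's range, was compared with a critical value of 0.625. For Akr1b3 it was 0.788 in DT 4, with 18.3 CPM against 16.2 to 16.6 CPM in the other DT samples. For Akr1e1 it was 0.627 in DT 6, with 16.6 CPM against 10.6 to 12.9 CPM in the other DT samples. For Cyp2a5 it was 0.812 in DT 5, with 101 CPM against 45.3 to 55.7 CPM in the other DT samples.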

How the results depend on the processing

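The 185 genes and 8 members called (7 higher, 1 lower) became 553 and 19 (18 higher, 1 lower) with scaling by library size alone, which moved the median of all genes to 0.11 and of the members to 0.20, and the share of higher calls from 34.1% to 87.5% (upper quartile scaling: 47.9%, with 9 members called). They became 567 and 14 (12 and 2) with DESeq2, 1017 and 15 (13 and 2) with the side of the first principal component as a term, and 16 and 1 (1 and 0) without PBS 2 and PBS 5, an alternative chosen after seeing the data. Leaving out 1 sample gave 46 to 263 genes and 1 to 10 members (1 to 9 higher, 0 to 1 lower), with a member median of 0.08 to 0.14. RLE scaling called 8 members, voom 7 (6 shared) and no filter 11. The cause of these changes was not tested.

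Same-numbered samples did not deviate together (correlations -0.325 to 0.107, 1 of 6 pairs over 0.1). These correlations gave no sign that the numbers pair the samples, but they cannot exclude it. With the replicate number as a block, edgeR called 8 genes and 0 members (0 higher, 0 lower), with 23 members at an unadjusted p under 0.05. No called member changed direction under any alternative run. Over all alternatives, the 8 called members kept their call in 97 of 168 results and lost it in 71. Ces1d, Cyp4b1, Gsto1, Mgst2 and Mgst3 were called with library size alone and under no other setting.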
